A study of Mus musculus with 6 samples.

Results

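The receptors, a ligand and the binding proteins of the insulin and insulin-like growth factor (IGF) system were described through the autonomic ganglia of newborn mice, chosen by symbol from the deposited gene list: *Insr*, *Insrr*, *Igf1r*, *Igf1*, *Igfbp2*, *Igfbp3*, *Igfbp4*, *Igfbp5*, *Igfbp6* and *Igfbp7*, which are 10 of the 32285 genes counted. Whole ganglia were dissected from transgenic pups at postnatal day 5 and dissociated into single cells, and their RNA was counted as unique molecular identifiers (UMIs), each a tag on 1 captured RNA molecule. All pups carried the same alleles, a Cre driver and a Cre-dependent red fluorescent reporter, they were of both sexes, no group was treated, and the number of pups pooled per library is not given in the sources used here. Round 1, with droplet chemistry version 2, gave the stellate (paravertebral sympathetic), the sphenopalatine (parasympathetic) and a first pelvic library, pelvic_1. Round 2, with version 3, gave the coeliac (prevertebral sympathetic), the lumbar (paravertebral sympathetic) and a second pelvic library, pelvic_2.

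The insulin receptor and the IGF1 receptor are related tyrosine kinases that, once bound by insulin, IGF1 or IGF2, recruit IRS adaptors and switch on the PI3K and AKT kinases, a route to growth, survival and nutrient uptake. The IGF-binding proteins are secreted carriers that hold IGFs in the circulation and in the extracellular matrix, and proteases release the growth factor again. In the peripheral nervous system IGF1 is known as a growth and survival factor for neurons and for Schwann cells.

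The 6 libraries comprised 39353313 to 113352559 UMIs, and 1427 to 7219 droplets per library were retained, 21442 in all. Cells were assigned to classes from fixed marker genes and from clusters computed without the 10 members and without other genes of the pathway, which gave 6514 neurons, 8263 glia, 3015 fibroblast-like, 724 endothelial-like, 611 mural-like (pericytes and smooth muscle) and 545 macrophage-like cells. The markers of each class were summed in CPM, the counts of the pooled cells scaled to a total of 1000000 UMIs: the glial list lay at 9517 to 14133 CPM in glia and at 21.4 to 111 CPM in neurons, and the fibroblast list at 34700 to 63265 CPM in fibroblast-like cells, 1817 to 7236 CPM in glia and 26.0 to 183 CPM in neurons. Haemoglobin and other erythroid genes lay at 4025 to 26725 CPM in endothelial-like cells, and their part in any endothelial value was not tested. Clusters of neurons in which at least 2 markers of a non-neuronal class stood among the 10 leading genes were left out, a choice made after these data were seen, and they held 10.5% of neurons in pelvic_1, 7.46% in the sphenopalatine, 7.23% in the lumbar, 6.01% in the stellate, 4.70% in pelvic_2 and none in the coeliac library. A further 285 cells with neuronal and glial markers were set apart, and between 0 and 49 barcodes were shared by the 15 pairs of libraries.

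By CPM, each member had 1 class in which its median over libraries was highest: neurons for *Insrr*, endothelial-like cells for *Insr*, *Igf1r*, *Igfbp3* and *Igfbp7*, mural-like cells for *Igfbp5*, and fibroblast-like cells for *Igf1*, *Igfbp2*, *Igfbp4* and *Igfbp6*. By the share of cells with a UMI as counted, neurons were highest for *Insr* and *Igf1r*, and mural-like cells for *Igfbp7*. With each cell thinned to 2000 UMIs, endothelial-like cells were highest for *Insr* and *Igf1r*, and mural-like cells again for *Igfbp7*. The ligand and most of its carriers were thus read mainly outside neurons. Inside the neuronal class the members separated the ganglia, with *Insrr* at 19.8 to 22.7 CPM in the sympathetic libraries and 0.0867 CPM in the sphenopalatine, and *Igfbp7* at 202 and 235 CPM in the pelvic libraries and 10.8 to 23.8 CPM in the others. They also separated the clusters of pelvic neurons, named P1-like to P4-like by fixed markers of each and written P1 to P4 here. Of these, *Insrr* was highest in P3 and *Igfbp3* in P4, and *Igfbp7* was highest in P2 and lowest in P4. An unnamed pelvic cluster had 417 and 392 CPM of *Igfbp7* in pelvic_1 and pelvic_2, against 267 and 454 CPM in P2.

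**Figure D1:**
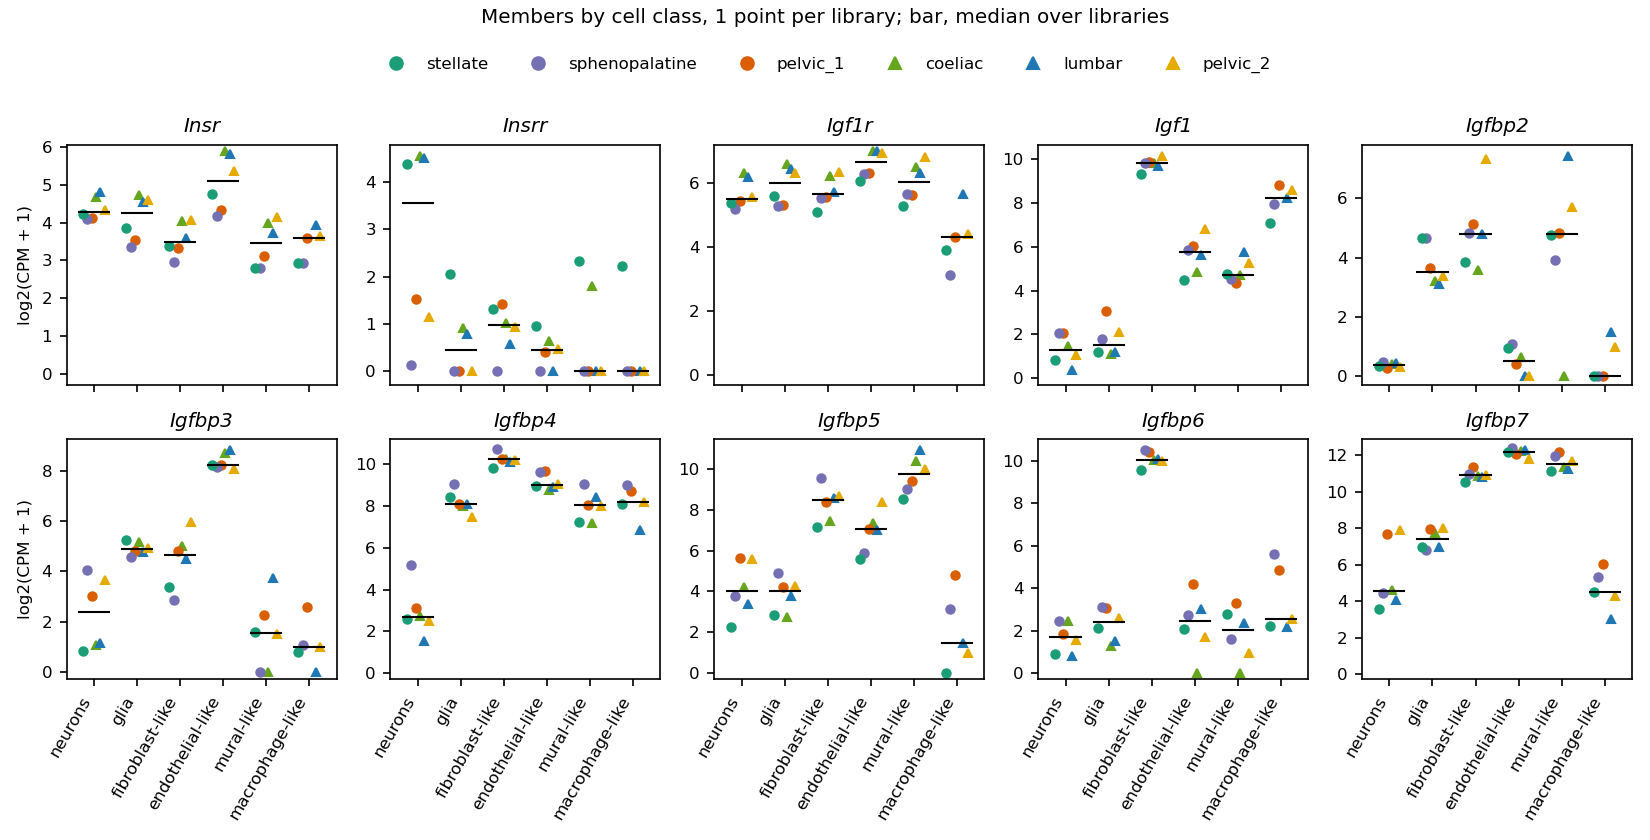
Level of each member in 6 cell classes, as log2(CPM + 1), with 1 point per library (circles for round 1, triangles for round 2) and a bar at the median. *Insrr* rises above the other classes in the stellate, coeliac and lumbar neurons, and *Igfbp6* lies at 752 to 1438 CPM in fibroblast-like cells and at no more than 48.5 CPM in every other class.

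Classes were compared on UMIs summed per library and class with edgeR's quasi-likelihood test, the library as a block, and Benjamini-Hochberg adjustment over all 15113 genes tested, a call being an adjusted p under 0.05. The classes come from the same cells, and the spread was estimated from the sums of all classes together. These p-values set a difference against that residual spread and do not measure how steadily it recurred over the 6 libraries. Against glia, 2 members were higher in neurons and 4 lower, where 37.0% of all genes were called higher and 36.0% lower. Against the mean of the other classes, fibroblast-like cells had 6 members higher and 1 lower (29.2% and 23.5% of all genes), and the members' median log2 difference was 2.79 where that of all genes was 0.00. Endothelial-like cells had 7 members higher and 2 lower (29.0% and 28.2% of all genes). Mural-like cells had 3 higher and 3 lower (18.3% and 16.3%). Macrophage-like cells, of which the coeliac library had too few, had 2 higher and 6 lower (24.4% and 28.2%), on a scale where the median log2 difference of all genes was -0.20. The members were too few to read more from these shares than their counts.

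**Figure D2:**
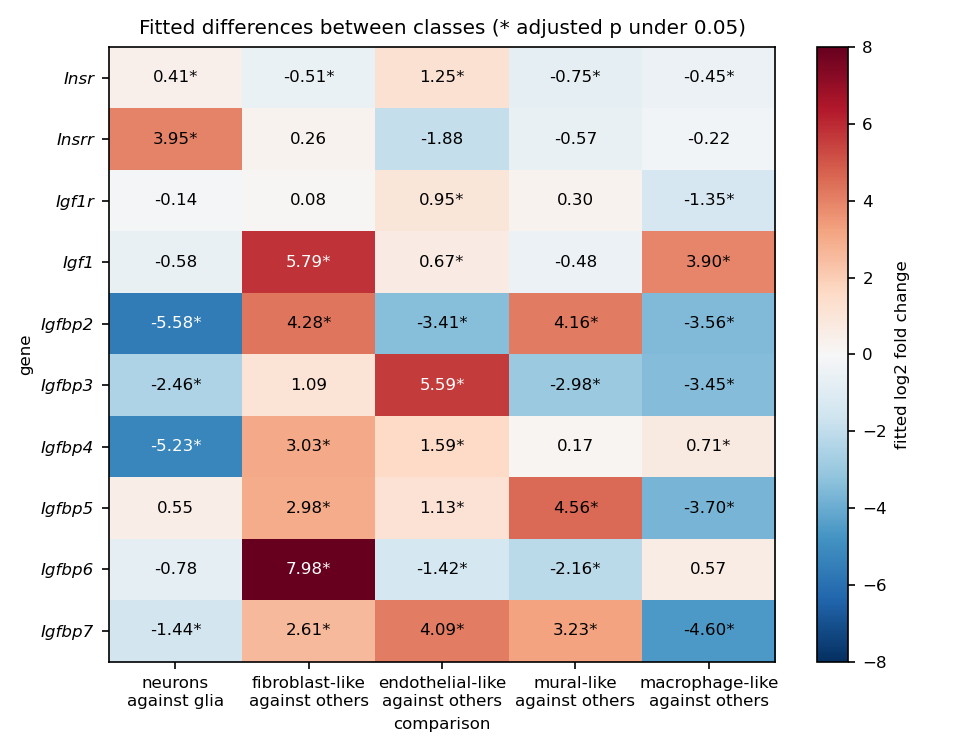
Fitted log2 differences of the 10 members in the 5 comparisons between classes, with an asterisk where the adjusted p is under 0.05. The fibroblast-like column runs from -0.51 for *Insr* to 7.98 for *Igfbp6*, and the macrophage-like column is positive past the threshold for *Igf1* and *Igfbp4*.

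Binding proteins that differed in where they were read were chosen for a look at their promoters. *Igfbp3* was highest in endothelial-like cells and, among neurons, in P4. *Igfbp4* was read at 100 CPM or more in every class but neurons, and *Igfbp6* chiefly in fibroblast-like cells. *Igfbp7* was highest in endothelial-like, mural-like and fibroblast-like cells and, among neurons, in the pelvic libraries. The 100 bases before the RefSeq transcription start are shown for these 4 members. They are RefSeq reference sequence of GRCm38.p6, written 5′ to 3′ on the strand of the gene, and lie at chr11:7213924-7214023 (minus), chr11:99041144-99041243 (plus), chr15:102144086-102144185 (plus) and chr5:77408046-77408145 (minus). Capitals mark matches on either strand to TATANA, letters of a core promoter element, or to GGGCGG, the core of a GC box.
Igfbp3: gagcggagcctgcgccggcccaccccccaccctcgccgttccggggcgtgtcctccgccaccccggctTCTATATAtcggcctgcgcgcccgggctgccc
Igfbp4: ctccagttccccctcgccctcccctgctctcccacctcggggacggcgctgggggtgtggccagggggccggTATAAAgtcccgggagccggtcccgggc
Igfbp6: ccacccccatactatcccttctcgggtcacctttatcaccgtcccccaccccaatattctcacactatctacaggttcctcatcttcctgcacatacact
Igfbp7: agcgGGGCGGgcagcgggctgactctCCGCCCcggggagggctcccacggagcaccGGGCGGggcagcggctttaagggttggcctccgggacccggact

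The *Igfbp3* window held 3 overlapping TATANA matches that begin 30 to 32 bases before the start, and the *Igfbp4* window 1 match 28 bases before it. The *Igfbp7* window held 3 GGGCGG matches, 96, 74 and 44 bases before the start, and the *Igfbp6* window held neither pattern. Over 32851 promoters of mouse genes, the same 100-base window held TATANA in 9.48% and GGGCGG in 24.7%, on either strand. G and C made up 77% of the bases for *Igfbp3* and *Igfbp7*, 75% for *Igfbp4* and 51% for *Igfbp6*. The *Igfbp6* window ends at 102144185, while GENCODE M21 starts this gene further on, at 102144362. A window before that other start was not examined. A match is a run of letters and was not tested as a binding site. *Igfbp2* (chromosome 1, 72824503 to 72852474, plus strand) and *Igfbp5* (chromosome 1, 72857932 to 72874884, minus strand) are neighbours in GENCODE M21 on GRCm38, with their ends facing each other across 5457 bases.

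Of the receptors, *Insr*, the insulin receptor (chromosome 8, 3122061 to 3279617, minus strand), was read in every class and library. Endothelial-like cells had 17.0 to 59.2 CPM with a median of 33.2, neurons 15.99 to 26.9 CPM and glia 9.34 to 25.7 CPM, so neurons and glia overlapped. Fibroblast-like cells had 6.83 to 15.8 CPM, mural-like 5.98 to 16.9 CPM and macrophage-like 6.58 to 14.3 CPM. Endothelial-like cells were above the neurons of their own library in every library. The fitted log2 difference of endothelial-like cells was 1.25 ± 0.12 (SE; edgeR adjusted p = 3.47e-10; higher in 6 of 6 libraries). *Insr* was lower in mural-like (-0.75 ± 0.19, adjusted p = 0.00414) and fibroblast-like cells (-0.51 ± 0.13, adjusted p = 0.00122), each in 6 of 6 libraries. The mural-like call was lost in round 2 alone (adjusted p = 0.161) and the fibroblast-like call without the library block (adjusted p = 0.103).

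Between neurons and glia *Insr* differed by 0.41 ± 0.14 on the log2 scale (edgeR adjusted p = 0.00890), but by an exact sign-flip permutation test over the 6 libraries p was 0.188, with neurons higher in 4 of 6. The mean difference was 0.56 in round 1 and -0.02 in round 2, and the call was lost in round 2 alone (adjusted p = 0.181) and without the library block (adjusted p = 0.205). The macrophage-like value of -0.45 ± 0.19 (adjusted p = 0.0481, lower in 5 of 5 libraries) was lost in 12 of 18 alternatives. No pelvic cluster differed in *Insr* past the threshold, the closest being P1, at 13.2 and 17.8 CPM in pelvic_1 and pelvic_2 (-0.30 ± 0.15, adjusted p = 0.204).

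*Insrr*, the insulin receptor-related receptor (chromosome 3, 87796951 to 87816101, plus strand), binds none of the known ligands of this family and is known to respond to alkaline pH. In neurons it lay at 22.7 CPM in the coeliac, 21.8 in the lumbar, 19.8 in the stellate and 0.0867 in the sphenopalatine library, and the pelvic libraries had 1.88 (pelvic_1) and 1.22 CPM (pelvic_2). The sympathetic libraries of both rounds were thus at least 10.5 times the pelvic library of their own round. Glia had 3.13 CPM in the stellate, 0.889 in the coeliac and 0.710 in the lumbar library, and no UMI in 1720 pelvic_1, 563 pelvic_2 and 1534 sphenopalatine glia. In glia of the stellate *Insrr* stood at 15.8% of its neuronal level and the summed neuronal markers at 16.8% of theirs, in the coeliac at 3.92% and 4.02%, and in the lumbar library at 3.25% and 4.41%. The part of neuronal RNA in the glial values was not tested. Neurons were higher than glia by a log2 difference of 3.95 ± 0.53 (edgeR adjusted p = 1.00e-07), or 4.76 without the stellate. This holds beyond the limit that a glial count of 0 allows in 5 of 6 libraries. In the sphenopalatine, 6 UMIs in neurons stood against none in glia, which allows up to 0.389 CPM there (3 counts).

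As a share of cells, *Insrr* had a UMI in 40.0% of the stellate neurons, in 59.1% of those of the coeliac and in 63.8% of those of the lumbar library. The sphenopalatine share was 0.345%, and the pelvic shares were 6.10% (pelvic_1) and 8.41% (pelvic_2). In the sphenopalatine the median neuron held 38061 UMIs, more than the 27004 of the stellate. Of the stellate glia, with a median of 3473 UMIs, 1.12% had a UMI. Thinned to 2000 UMIs per cell, neurons had a UMI in 3.87% in the stellate, 4.33% in the coeliac and 3.70% in the lumbar library, and glia in 0.612%, 0.183% and 0.171%. Thinned pelvic neurons had a UMI in 0.333% (pelvic_1) and 0.275% (pelvic_2), and pelvic glia had none. At the same depth, sympathetic neurons other than the cholinergic-like ones had a UMI in 3.85% to 4.33% and sphenopalatine neurons in 0.0193%. Each ganglion other than the pelvic has 1 library, so these differences between ganglia have no test.

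Within the sympathetic libraries *Insrr* was lower in the cholinergic-like neurons, named by *Vip*, *Sst* and the choline transporters. They had 8.23 CPM (exact Poisson 95% interval 5.59 to 11.7, for counting error only) against 22.7 (21.5 to 23.9) in the other lumbar neurons, and 6.08 (3.97 to 8.91) against 20.6 (19.6 to 21.7) in the stellate. The stellate cholinergic-like neurons had a median of 11646 UMIs and the other stellate neurons 27692. In the sphenopalatine every neuron cluster was at or under 0.171 CPM.

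In the pelvic ganglion *Insrr* was read in P3, the noradrenergic-like cluster. P3 had 7.57 CPM (5.38 to 10.3) in pelvic_1 and 8.00 CPM (5.40 to 11.4) in pelvic_2, P1 1.83 and 0.610 CPM, P2 0.180 CPM and none, and P4 none in 56 and 31 neurons, which allows a share of neurons with a UMI of up to 5.36% and 9.68% (3 counts). P3 stood above the other 3 clusters in both libraries, and the shares of its neurons with a UMI were 22.3% and 51.5% (1.27% and 1.69% after thinning). The edgeR adjusted p of P3 against the mean of P1, P2 and P4 was 1.13e-07, and no fold is given because 1 of these clusters was at 0. The intervals of P3 and of the sympathetic cholinergic-like neurons overlap, and those of P3 and of the other sympathetic neurons do not.

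*Igf1r*, the receptor of IGF1 and IGF2 (chromosome 7, 67952827 to 68233668, plus strand), was read in every class and library. Endothelial-like cells had 65.1 to 127 CPM (median 99.7), mural-like 37.9 to 112, glia 37.7 to 96.2, fibroblast-like 33.2 to 79.3, neurons 35.6 to 78.9 and macrophage-like 7.72 to 50.0 CPM. Of the classes, endothelial-like cells were higher (0.95 ± 0.12, adjusted p = 1.24e-07, 6 of 6 libraries) and macrophage-like cells were lower (-1.35 ± 0.19, adjusted p = 3.93e-07, 5 of 5 libraries). Neurons and glia differed by -0.14 ± 0.15 (adjusted p = 0.422), an estimate whose error allows a difference of either sign.

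Among neurons *Igf1r* was 78.9 CPM in the coeliac, 71.1 in the lumbar, 40.5 in the stellate and 35.6 in the sphenopalatine library, and 42.4 and 46.5 CPM in the pelvic libraries of rounds 1 and 2. Both *Insr* and *Igf1r* moved with the sequencing round: in 6 of 6 classes every round 2 library was above every round 1 library for *Insr*, and likewise for *Igf1r*. The pelvic ganglion, sequenced in both rounds, had ratios of pelvic_2 to pelvic_1 of 1.04 to 2.19 for *Insr* and 1.06 to 2.29 for *Igf1r* over the classes. In its neurons the ratios were 1.15 for *Insr* and 1.10 for *Igf1r*. Round, chemistry and, apart from the pelvic, ganglion cannot be told apart here. Within the pelvic ganglion *Igf1r* was highest in P2, at 52.2 and 57.7 CPM (0.52 ± 0.11, adjusted p = 0.00119), and lowest among the named clusters in P3, at 27.7 and 39.5 CPM (-0.52 ± 0.13, adjusted p = 0.00368). P1 with 42.6 and 44.9 CPM and P4 with 44.3 and 41.8 CPM lay between them, and their intervals overlap each other. The Poisson interval of P3 lay below those of P1 and P4 in pelvic_1 (23.4 to 32.7 CPM) and overlapped both in pelvic_2 (33.4 to 46.4 CPM). Without the library block neither call held (adjusted p = 0.171 and 0.158), and at a finer resolution of clusters they were at 0.0924 and 0.0504.

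**Figure D3:**
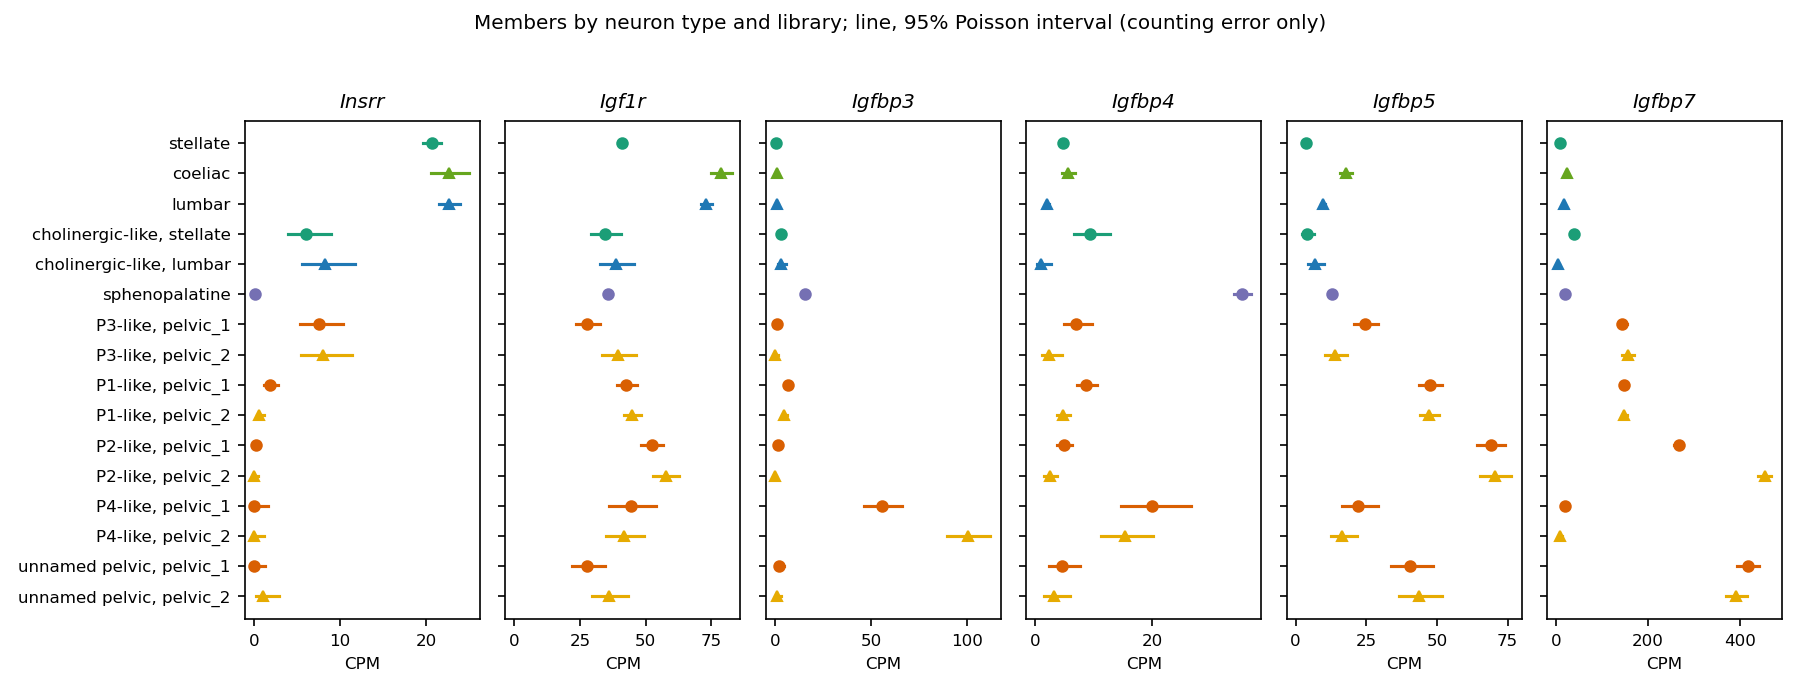
Levels of 6 members in CPM for each neuron type and library, with 95% Poisson intervals for counting error only; rows named by a ganglion alone hold its neurons other than cholinergic-like ones. *Insrr* reaches 20.6 to 22.7 CPM in the sympathetic rows and 7.57 and 8.00 CPM in P3, *Igfbp3* reaches 55.6 and 100.4 CPM in P4, and *Igfbp7* is highest in P2 and in the unnamed pelvic cluster.

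The ligand *Igf1* (chromosome 10, 87858265 to 87937042, plus strand) was read in fibroblast-like cells at 891 CPM in the coeliac, 822 in the lumbar, 915 in pelvic_1, 1136 in pelvic_2, 887 in the sphenopalatine and 624 in the stellate library, and 82.2% to 99.2% of these cells had a UMI. Macrophage-like cells were next, at 135 CPM in the stellate to 454 CPM in pelvic_1. Neither class overlapped with any other in any library. The fitted log2 differences were 5.79 ± 0.20 for fibroblast-like cells (adjusted p = 3.42e-20, 6 of 6 libraries) and 3.90 ± 0.23 for macrophage-like cells (adjusted p = 5.84e-15, 5 of 5).

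Endothelial-like cells had 21.1 to 111 CPM of *Igf1* and mural-like cells 19.2 to 53.4 CPM. The endothelial value of 0.67 ± 0.25 (adjusted p = 0.0251) was lost without pelvic_2 (adjusted p = 0.219) and without the stellate (adjusted p = 0.0538). It was lost too without the block (0.0895), in round 1 alone (0.153) and with the left-out neuron clusters kept (0.0680). DESeq2's Wald test gave an adjusted p of 0.0526. Neurons had 0.311 to 3.25 CPM and glia 1.18 to 7.42 CPM, and their difference did not pass the threshold (-0.58 ± 0.39, adjusted p = 0.177). In neurons *Igf1* stood at 0.0379% to 0.355% of its fibroblast-like level, and the 6 fibroblast marker genes at 0.0476% to 0.362% of theirs. In glia *Igf1* stood at 0.133% to 0.811% of that level and the fibroblast markers at 5.24% to 13.9%. *Igf1os*, an antisense gene that shares 5117 bases with *Igf1*, reached at most 1.402 CPM in any class.

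Of the binding proteins, *Igfbp2* was read in the stroma and in glia. Fibroblast-like cells had 10.9, 26.8, 34.5, 158, 27.3 and 13.3 CPM in the coeliac, lumbar, pelvic_1, pelvic_2, sphenopalatine and stellate libraries, and glia 7.71 to 24.4 CPM. Neurons lay at 0.213 to 0.405 CPM and endothelial-like cells at or under 1.13 CPM, below glia in every library. Neurons were lower than glia by a log2 difference of -5.58 ± 0.58 (adjusted p = 7.45e-10, 6 of 6 libraries). Fibroblast-like cells were higher than the mean of the other classes by 4.28 ± 0.43 (adjusted p = 7.82e-10, 6 of 6), or 3.65 without pelvic_2 (adjusted p = 1.21e-07). They were not above every class: stellate glia (24.4 CPM) and mural-like cells (26.0 CPM) exceeded them, as did lumbar mural-like cells (172 CPM). In glia *Igfbp2* stood at 6.01% (pelvic_2) to 183% (stellate) of its fibroblast-like level, and the fibroblast markers at 5.24% to 13.9% of theirs.

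In pelvic_2, 1178 of the 1383 *Igfbp2* UMIs of fibroblast-like cells came from 1 cluster of 59 cells, led by *Igfbp2* itself, *Rspo3* and *Tcf21*, at 856 CPM. In mural-like cells *Igfbp2* lay at 0 CPM in the coeliac and 172 CPM in the lumbar library, where 2 of 27 cells held all 42 UMIs. In pelvic_2, 5 of 76 mural-like cells held all 55 UMIs, and in no library did more than 7.41% of these cells have a UMI. The mural log2 difference was 4.16 ± 0.55 (adjusted p = 3.61e-07, higher in 5 of 6 libraries), and 3.05 once simulated doublets were removed. The lower values of endothelial-like (-3.41 ± 1.32, adjusted p = 0.0279) and macrophage-like cells (-3.56 ± 1.49, adjusted p = 0.0459, and -4.32 without the lumbar library) rest on few UMIs and were lost in several alternatives.

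*Igfbp3*, a main carrier of circulating IGF, was read in endothelial-like cells at 420 CPM in the coeliac, 451 in the lumbar, 304 in pelvic_1, 268 in pelvic_2, 285 in the sphenopalatine and 299 in the stellate library. Glia had 23.0 to 37.2 CPM and fibroblast-like cells 6.31 to 61.7 CPM, so endothelial-like cells stood apart in every library. The fitted log2 difference was 5.59 ± 0.38 (adjusted p = 1.14e-13, 6 of 6 libraries). Glia exceeded neurons in 6 of 6 libraries (neurons against glia -2.46 ± 0.52, adjusted p = 0.000113, and -1.87 without the stellate), and in glia *Igfbp3* stood at 5.91% to 12.5% of its endothelial-like level where the endothelial markers stood at 0.149% to 0.618% of theirs. Mural-like (-2.98 ± 1.02, adjusted p = 0.0226) and macrophage-like cells (-3.45 ± 1.07, adjusted p = 0.00779, and -4.53 without pelvic_1) were lower. The mural call was lost without either pelvic library (adjusted p = 0.122 without pelvic_1 and 0.0707 without pelvic_2). Neither the mural nor the macrophage-like call held in round 1 alone (0.104 and 0.0897) or round 2 alone (0.384 and 0.0698).

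Among neuron types *Igfbp3* was highest by CPM in 1 pelvic cluster and next in the parasympathetic ganglion. P4, named by markers that include *Aldh1a2*, had 55.6 CPM (46.4 to 66.1) in pelvic_1 and 100.4 CPM (89.7 to 112) in pelvic_2, with a UMI in 64.3% and 90.3% of its neurons. P1 had 6.71 and 4.88 CPM, P2 1.89 and 0.223 CPM and P3 0.970 and 0.267 CPM. In pelvic_1 and pelvic_2, 20.97% and 31.13% of P1 neurons had a UMI. The shares were 3.94% and 2.11% in P2, of like depth to P4, and 3.85% and 3.03% in P3. The fitted log2 difference of P4 was 5.50 ± 0.28 (adjusted p = 2.77e-12), that of P3 -3.55 ± 0.64 (adjusted p = 0.000187) and that of P2 -2.50 ± 0.61 (adjusted p = 0.00456, and 0.109 without the block). The values of P3 and P2 are each against a mean that includes P4. Endothelial markers summed to 36.9 and 21.5 CPM in P4, within the 19.3 to 59.2 CPM of P1, P2 and P3. Glial markers summed to 439 and 420 CPM in P4 against 20.3 to 129 CPM in those clusters, and their part in the P4 value was not tested; *Igfbp3* in P4 was above the 27.1 and 29.9 CPM of the pelvic glia themselves.

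Sphenopalatine neurons had 15.8 CPM of *Igfbp3* (34.5% of neurons with a UMI, 3.54% after thinning), against 0.786 CPM in the stellate, 1.11 in the coeliac and 1.25 in the lumbar library. Their clusters ranged from 3.93 CPM in the one led by *Npy* and *Cited1* to 30.4 CPM in the one led by *Lgals3*, and the clusters led by *Gpr50* and *Penk* (29.9 CPM) and by *Edil3* and *Ddc* (22.8 CPM) were also high. Cholinergic-like neurons had 3.04 CPM (1.62 to 5.20) in the stellate and 3.45 CPM (1.84 to 5.90) in the lumbar library, above the 0.650 (0.476 to 0.867) and 1.11 (0.859 to 1.41) of the other neurons there.

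*Igfbp4*, a carrier that is cut by the protease PAPP-A, was read in every class but neurons at 100 CPM or more. Fibroblast-like cells had 904 to 1696 CPM (median 1196), endothelial-like 440 to 812, macrophage-like 112 to 509, glia 179 to 532 and mural-like 143 to 527 CPM, and all but the fibroblast-like cells overlapped. Neurons had 1.88 to 7.56 CPM in 5 libraries and 35.4 CPM in the sphenopalatine. Neurons were lower than glia (-5.23 ± 0.35, adjusted p = 5.88e-14, 6 of 6 libraries), and fibroblast-like (3.03 ± 0.19, adjusted p = 3.94e-14) and endothelial-like cells (1.59 ± 0.21, adjusted p = 1.45e-07) were higher, each in 6 of 6. The macrophage-like value of 0.71 ± 0.25 (adjusted p = 0.0163, higher in 4 of 5 libraries) is against a mean that includes the neurons. It was lost without either pelvic library and without the stellate (adjusted p = 0.137, 0.0752 and 0.0900). It was also lost without the block (0.0815) and in round 2 alone (0.303).

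In glia *Igfbp4* stood at 15.3% to 37.9% of its fibroblast-like level, above the 5.24% to 13.9% at which the fibroblast markers stood. The sphenopalatine had the highest *Igfbp4* not only in neurons but also in glia (532 CPM), fibroblast-like (1696 CPM), mural-like (527 CPM) and macrophage-like cells (509 CPM). Among endothelial-like cells pelvic_1 was highest, at 812 CPM against 778 CPM in the sphenopalatine. Of the sphenopalatine neurons 59.6% had a UMI (6.72% after thinning), and their clusters ranged from 16.9 CPM to 72.9 CPM in the cluster led by *Gpr50* and *Penk*. The glial markers summed to 97.9 CPM in these neurons and to 111 CPM in the pelvic_1 neurons, which had 7.56 CPM of *Igfbp4*. The pelvic_1 glia had 272 CPM of *Igfbp4*, less than the sphenopalatine glia. The part of glial RNA in these neuronal values was not tested. In the pelvic ganglion P4 was highest, at 20.0 and 15.3 CPM (1.83 ± 0.23, adjusted p = 2.23e-06). In P4 *Igfbp4* stood at 7.34% and 8.53% of its level in the pelvic glia and the summed glial markers, which were higher there than in P1 to P3, at 4.61% and 4.36% of theirs, and their part in the P4 value was not tested. P2 was lower, at 4.85 and 2.45 CPM (-1.14 ± 0.23, adjusted p = 0.000794), a call lost without the block (adjusted p = 0.348).

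*Igfbp5*, a carrier that binds extracellular matrix, was read in mural-like cells at 1334 CPM in the coeliac, 1909 in the lumbar, 682 in pelvic_1, 1032 in pelvic_2, 513 in the sphenopalatine and 369 in the stellate library. Fibroblast-like cells had 142 to 761 CPM and overlapped with them across libraries, being higher in the sphenopalatine alone, and endothelial-like cells had 47.8 to 333 CPM. The fitted log2 differences were 4.56 ± 0.32 for mural-like (adjusted p = 6.61e-13, 6 of 6 libraries) and 2.98 ± 0.32 for fibroblast-like cells (adjusted p = 2.76e-09, 6 of 6). The endothelial value of 1.13 ± 0.35 (adjusted p = 0.00739) was lost without pelvic_2 (adjusted p = 0.0746) and in round 1 alone (0.423). Macrophage-like cells were lower (-3.70 ± 0.64, adjusted p = 1.41e-05), or by -5.30 without pelvic_1.

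Among neurons *Igfbp5* lay at 48.8 CPM in pelvic_1 and 46.5 CPM in pelvic_2, above the 17.7 CPM of the coeliac, 12.8 of the sphenopalatine, 9.50 of the lumbar and 3.86 of the stellate library. Glia had 5.73 to 29.3 CPM, and the difference of neurons from glia did not pass the threshold (0.55 ± 0.46, adjusted p = 0.286; neurons higher in 3 of 6 libraries). In pelvic neurons *Igfbp5* stood at 7.16% and 4.50% of its mural-like level where mural markers stood at 0.127% and 0.0509% of theirs. P2 was highest with 69.0 and 70.5 CPM (1.46 ± 0.13, adjusted p = 2.17e-08), then P1 with 47.6 and 47.2 CPM (0.71 ± 0.13, adjusted p = 0.000460), while P3 with 24.6 and 13.9 CPM (-1.04 ± 0.17, adjusted p = 6.65e-05) and P4 with 22.1 and 16.5 CPM (-1.14 ± 0.19, adjusted p = 7.70e-05) were lower and overlapped. Without the block P1 and P3 lost their calls (adjusted p = 0.246 and 0.0592), as did P1 and P4 when each pelvic library was clustered alone (0.231 and 0.0995).

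*Igfbp6*, a carrier that prefers IGF2 to IGF1, was read chiefly in fibroblast-like cells, at 752 to 1438 CPM and a median of 1064, against 48.5 CPM at most in any library of another class. The fitted log2 difference of 7.98 ± 0.25 (adjusted p = 2.43e-21, 6 of 6 libraries) was the largest among the 10 members and these 5 comparisons. Neurons had 0.748 to 4.48 CPM and glia 1.38 to 7.52 CPM, without a difference past the threshold (-0.78 ± 0.40, adjusted p = 0.0811). In neurons *Igfbp6* stood at 0.0700% to 0.414% of its fibroblast-like level, and the fibroblast markers at 0.0476% to 0.362% of theirs. Endothelial-like (-1.42 ± 0.43, adjusted p = 0.00585) and mural-like cells (-2.16 ± 0.62, adjusted p = 0.00679) were lower, calls that round 2 alone did not give. Both values are against a mean that includes the fibroblast-like cells. Endothelial-like cells had 0 to 17.5 CPM and mural-like cells 0 to 8.98 CPM, so both overlapped with neurons and glia.

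*Igfbp7*, a secreted protein of vessels that binds IGFs weakly, was read in endothelial-like cells at 3592 to 5447 CPM (median 4718), mural-like cells at 2244 to 4692 and fibroblast-like cells at 1505 to 2591 CPM. Endothelial-like cells were above mural-like cells in every library but pelvic_1. All 3 were higher than the mean of the other classes in 6 of 6 libraries, by 4.09 ± 0.29 (adjusted p = 5.57e-13), 3.23 ± 0.29 (adjusted p = 2.42e-10) and 2.61 ± 0.30 (adjusted p = 1.22e-08), and macrophage-like cells with 7.14 to 65.3 CPM were lower (-4.60 ± 0.56, adjusted p = 3.23e-08).

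Glia had 213 CPM of *Igfbp7* in the coeliac, 126 in the lumbar, 250 in pelvic_1, 258 in pelvic_2, 110 in the sphenopalatine and 126 in the stellate library, and neurons 23.8, 15.8, 202, 235, 20.7 and 10.8 CPM in the same order. Neurons were thus close to glia in the pelvic ganglion and lower elsewhere. The pooled value of -1.44 ± 0.46 (adjusted p = 0.00649; lower in 6 of 6 libraries, exact sign-flip permutation p = 0.0312, the smallest that 6 libraries allow) was lost without the coeliac (adjusted p = 0.0648), without the stellate (adjusted p = 0.0578), in round 1 alone (0.0534), in round 2 alone (0.114) and without the block (0.136). In pelvic neurons *Igfbp7* stood at 4.79% and 6.54% of its endothelial-like level, and endothelial markers at 0.608% and 0.552% of theirs.

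The pelvic clusters differed widely in *Igfbp7*. P2 had 267 and 454 CPM in pelvic_1 and pelvic_2, an unnamed pelvic cluster 417 and 392 CPM, P1 149 and 148 CPM, P3 144 and 156 CPM, and P4 20.0 and 8.42 CPM. Taken over all neurons of a library, the other ganglia had 10.8 to 23.8 CPM, and P4 lay within this range in pelvic_1 and below it in pelvic_2. By neuron type they ran from 4.51 CPM (lumbar cholinergic-like) to 39.8 CPM (stellate cholinergic-like), which includes P4 in both libraries. The other pelvic clusters lay above both ranges. The fitted log2 differences among the named clusters were 2.45 ± 0.15 for P2 (adjusted p = 5.62e-11) and -3.96 ± 0.24 for P4 (adjusted p = 4.23e-11). P1 (0.77 ± 0.16, adjusted p = 0.00129) and P3 (0.73 ± 0.17, adjusted p = 0.00185) were above a mean that includes P4, and the P3 value was -0.16 (adjusted p = 0.684) when each pelvic library was clustered alone. Neither was called without the block (adjusted p = 0.360 and 0.238) or by DESeq2's Wald test (0.391 and 0.284). In the stellate, 1 cholinergic-like cluster of 28 neurons led by *Adgrg6* and *Pnoc* had 119.8 CPM, and its other neuron clusters had at most 14.2 CPM.

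In the tests of the pelvic clusters, 9 of the 10 members passed the filter on low counts, *Igfbp2* being left out, and 13202 genes were tested. P3 had 2 members higher and 3 lower, where 13.7% of all genes were higher and 12.8% lower. P4 had 2 higher and 2 lower (14.6% and 11.5%), P1 had 2 higher and none lower (8.98% and 6.66%), and P2 had 3 higher and 2 lower (12.2% and 10.2%). The 2 pelvic libraries carry the same cluster names by joint clustering, so a p here speaks of 2 libraries. Each of these 16 calls had the same sign in both pelvic libraries. Without the library block 2 members were called in P3, 4 in P4, none in P1 and 2 in P2.

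**Figure D4:**
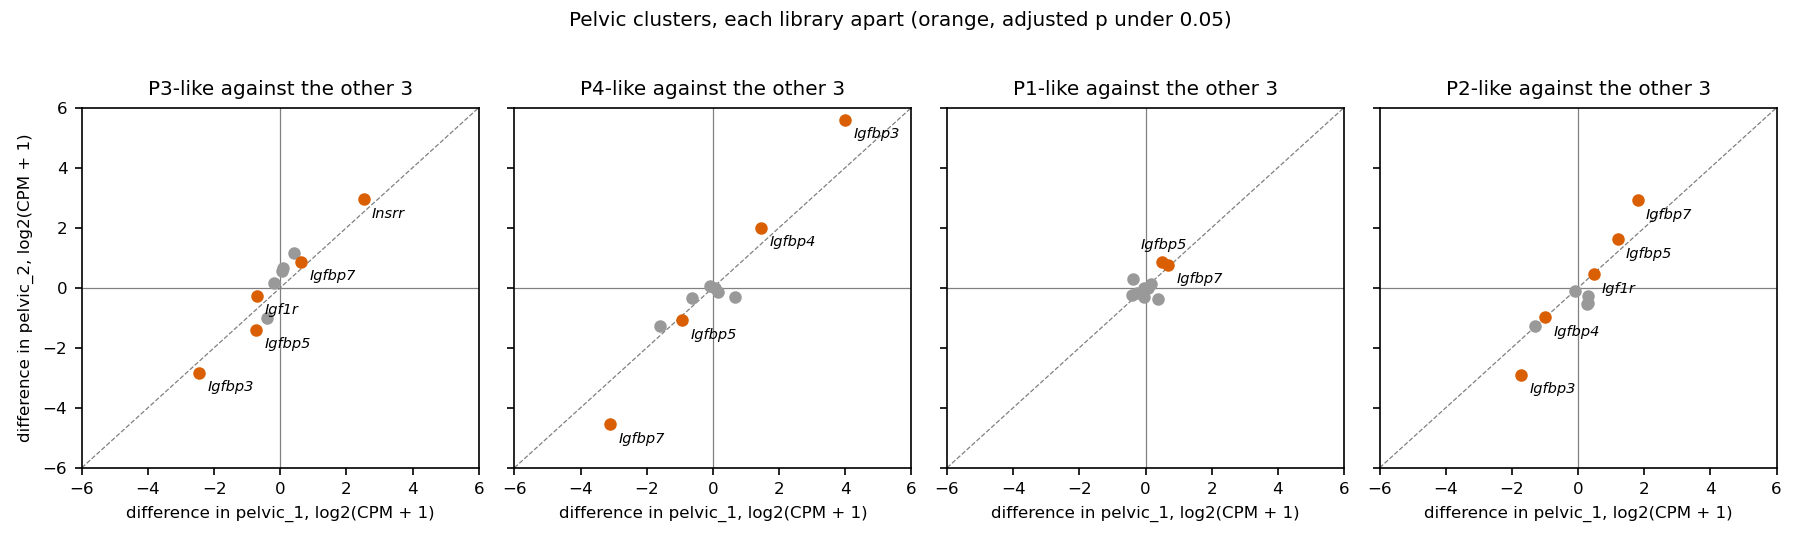
Difference of each pelvic cluster from the mean of the other 3 named clusters, as log2(CPM + 1), in pelvic_1 (horizontal) and pelvic_2 (vertical), with 1 point per member, orange where the adjusted p is under 0.05 and a dashed line of equal values. *Igfbp3* lies at 4.004 and 5.601 for P4, *Igfbp7* at -3.10 and -4.55, and *Insrr* at 2.52 and 2.94 for P3.

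Within fibroblast-like cells and glia the members also varied between clusters, and the following grouping was made after the values were seen and has no test. Clusters with *Cldn1* among their 10 leading genes were found in 6 libraries (6 clusters, 1077 cells) and clusters with *Thbs4* in 5 (7 clusters, 1255 cells). The *Cldn1* clusters had 1693 to 2482 CPM of *Igfbp6*, 232 to 984 CPM of *Igfbp5* and 2272 to 2915 CPM of *Igfbp7*, all above the 226 to 619, 10.1 to 65.1 and 1296 to 1728 CPM of the *Thbs4* clusters in 5 of 5 libraries. *Igf1* went the other way, at 75.6 to 969 CPM against 709 to 2096 CPM, as did *Igfbp2* at 1.58 to 18.7 CPM against 15.2 to 41.8 CPM, each in 5 of 5. *Igfbp5*, *Igfbp6* and *Igf1* were themselves among the leading genes of some of these clusters, although no member was used to form them.

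In glia, clusters led by *Fabp7*, a gene of satellite glia (11 clusters, 3945 cells), were set beside clusters led by *Egfl8* or *Kcna1* (9 clusters, 2454 cells), each in 6 libraries. The *Fabp7* clusters had 343 to 718 CPM of *Igfbp4*, 29.95 to 56.0 CPM of *Igfbp3* and 9.92 to 36.7 CPM of *Igfbp2*. The other clusters had 77.3 to 223, 11.2 to 20.2 and 0.660 to 5.42 CPM, lower in 6 of 6 libraries for each. *Igfbp7* was lower in the *Fabp7* clusters in 6 of 6, at 62.1 to 143 CPM against 238 to 414 CPM. Single clusters went further: a sphenopalatine fibroblast-like cluster of 121 cells led by *Mfap4*, *Sfrp2* and *Pi16* had 2962 CPM of *Igfbp5* and 3284 CPM of *Igfbp4*. In pelvic_1, 46 endothelial-like cells led by *Gkn3*, *Gja5* and *Sox17*, genes of arterial endothelium, had 720 CPM of *Igfbp3* and 357 CPM of *Igfbp7*, where the other 177 had 192 and 5264 CPM.

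**Figure D5:**
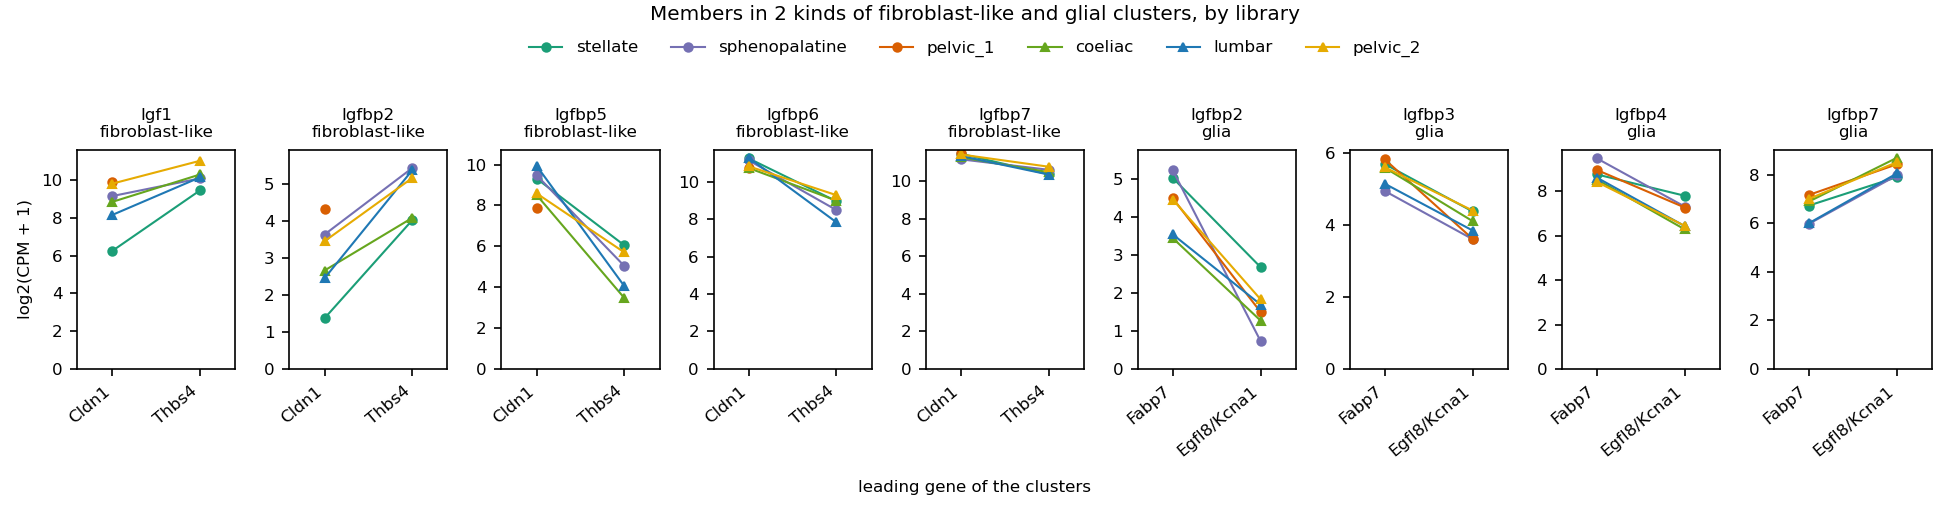
Members in fibroblast-like clusters with *Cldn1* or *Thbs4*, and in glial clusters with *Fabp7* or with *Egfl8* or *Kcna1*, among their leading genes, as log2(CPM + 1), with a line joining the values of 1 library. *Igfbp6* falls and *Igf1* rises from *Cldn1* to *Thbs4* clusters in each of the 5 libraries that hold both, and *Igfbp4* falls while *Igfbp7* rises from *Fabp7* to *Egfl8* or *Kcna1* clusters in 6 of 6.

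Around the members, 35 genes of the pathway were counted from a fixed list, of which 29 passed the filter in the class tests and 26 in the pelvic tests. Between neurons and glia 15 were higher and 9 lower, where 37.0% of all genes were higher and 36.0% lower. The PI3K and AKT arm had 6 of 8 higher in neurons, led by *Pik3cb*, a catalytic subunit (2.35, adjusted p = 5.41e-09), and 1 lower, *Akt2* (-1.15, adjusted p = 1.98e-10). Adaptors were split, 4 of 8 tested higher and 4 lower, with *Sh2b2* at 2.78 and *Gab1* at -3.11. *Foxo1*, a transcription factor that AKT inhibits, was lower in neurons (-4.94, adjusted p = 3.30e-15), and so was *Ghr*, the growth hormone receptor (-3.06). Of the carriers' regulators, *Pappa*, which encodes PAPP-A, was higher in neurons (3.68, adjusted p = 7.22e-07), as was the carrier-like *Igfbpl1* (3.30), and *Htra1*, a protease that cuts IGF-binding proteins, lower (-3.51).

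In fibroblast-like cells 14 pathway genes were higher and 4 lower (29.2% and 23.5% of all genes), the higher ones including *Igf2* (5.08), *Ghr* (3.52), *Igf2r*, the clearance receptor of IGF2 (1.98), and 6 of 8 adaptors, with *Irs1* at 2.19. Endothelial-like cells had 12 higher and 9 lower (29.0% and 28.2%), with *Igf2* at 4.18, *Stc1*, an inhibitor of PAPP-A, at 5.32 and *Foxo1* at 2.74. Mural-like cells had 12 higher and 4 lower (18.3% and 16.3%), with *Stc2* at 4.61, *Htra1* at 4.39 and *Stc1* at 4.13. Macrophage-like cells had 3 higher and 16 lower (24.4% and 28.2%), with *Sh2b2* at 3.44 and *Igf2r* at -3.65. These values are log2 differences that the same edgeR test called, and *Ins1* and *Ins2*, the insulin genes, did not pass the filter.

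In the pelvic clusters 7 pathway genes were higher and 5 lower in P3 (13.7% and 12.8% of all genes), with the adaptors *Irs1* (3.45, adjusted p = 2.12e-10), *Grb14* (2.53) and *Grb10* (1.61) higher and *Pappa* (-6.06, adjusted p = 2.48e-13) lower. P4 had 7 higher and 4 lower (14.6% and 11.5%), with *Ghr* at 4.06, *Pappa* at 3.70 and *Grb14* at -2.51. P1 had 2 higher, *Igfbpl1* at 5.58 and *Pappa* at 2.20, and 4 lower (8.98% and 6.66%). P2 had 6 higher and 4 lower (12.2% and 10.2%), with *Foxo1* at 1.25, *Grb10* at -2.84 and *Irs1* at -2.73.

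Over 45 sums of library and cell type, and among 13488 genes that reached 10 CPM in at least 1 of them, the genes whose pattern was most like that of a member were found by Pearson's r of log2(CPM + 1), given as a description since sums of 1 library share its depth. *Insrr* was like *C1ql1* (r = 0.876) and *Insm2* (0.861). *Igfbp6* was most like *Lypd2* (0.961), *Cldn1* (0.961) and *Pdgfra* (0.959), and *Igf1* most like *Lpl* (0.934), *B4galt1* (0.921) and *Nupr1* (0.919). For *Igfbp4* these were *Tmem63a* (0.965), *Cebpd* (0.957) and *Agtrap* (0.955), for *Igf1r* *Strn3* (0.919), *Arhgef12* (0.9002) and *Map4k4* (0.891), and for *Igfbp7* *Snai2* (0.923), *Cav1* (0.886) and *Rgs16* (0.879). *Igfbp5* was closest to *Foxc1* (0.896), *Sema5b* (0.879) and *Rasl11a* (0.874), *Igfbp3* to *Jam2* (0.874), *Smad5* (0.856) and *Plekhg1* (0.855), *Igfbp2* to *Gm11627* (0.882), *Loxl1* (0.876) and *Adamts15* (0.872), and *Insr* to *Slc39a10* (0.864), *Rc3h1* (0.851) and *Lrrc58* (0.850).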

How the data were processed

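The authors deposited raw UMI counts per gene and droplet for each library, made with Cell Ranger 6.0.1 on mm10. A droplet was kept if it held between 1500 and 11000 genes and less than 15% of its UMIs were mitochondrial. Neurons, glia and cells with both sets of markers were told apart on sctransform 0.4.2 values, and the rest by Louvain clustering (python-igraph 0.11.9; 3000 variable genes without the members or pathway genes; resolution 1, and 0.3 for neurons). The pelvic libraries were joined by mutual nearest neighbours. UMIs were summed per library and class or cluster, for sums of at least 10 cells, and tested in edgeR 4.0.16 (quasi-likelihood, TMM, filterByExpr, library as a block, Benjamini-Hochberg over all genes), a test first tried on simulated data. SE is the log2 difference over the root of F. Libraries come from separate dissections only as far as the labels say. The spread between sums that p-values set a difference against may thus be technical. The library is the pairing of classes, since its classes come from the same pooled ganglia.

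Intervals are exact (Poisson or binomial, 95%) and cover counting error only, and a count of 0 allows up to 3 counts. Thinned shares are expected values: the probability that a cell keeps a UMI of the gene among 2000 drawn was computed exactly and averaged over cells. All 10 members are named; of 35 pathway genes, up to 4 called per list with the largest log2 difference; and for each member the 3 genes of highest r. Some names and the values that need them are not reported here. The members and lists were chosen with earlier results of these data known. DESeq2 1.42.0 served as an alternative. Sequences are from a RefSeq promoter table, which matched 8 of 10 members, and positions from GENCODE M21.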

Additional observations from a re-analysis of the deposited data

Results flagged for a closer look

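In 60 groups of 5 or 6 libraries, 9 held a library far from the rest. The libraries differ in ganglion and round and some values rest on few UMIs, so no rate expected by chance is given. In glia, pelvic_1 had 7.42 CPM of *Igf1* where the others had 1.18 to 3.26, and the stellate 3.13 CPM of *Insrr* where the others had at most 0.889. The neuronal markers summed to 2379 CPM in the stellate glia and to 376 to 1118 CPM in glia of the others, and their part in the *Insrr* value was not tested. In fibroblast-like cells pelvic_2 had 158 CPM of *Igfbp2* and the others 10.9 to 34.5. In mural-like cells the lumbar library had 172 CPM of *Igfbp2*, against at most 51.6, and 12.3 CPM of *Igfbp3*, against at most 3.85. The *Igfbp3* value is 3 UMIs, with an interval of 2.54 to 36.0 CPM, and the 0 of the coeliac allows up to 7.51 CPM. In macrophage-like cells pelvic_1 had 5.02 CPM of *Igfbp3*, against at most 1.10, and 27.1 CPM of *Igfbp5*, against at most 7.72, and the stellate had 3.66 CPM of *Insrr*, from 5 UMIs, where the others had none, which allows them up to 2.88 to 5.35 CPM. In neurons the sphenopalatine had 35.4 CPM of *Igfbp4* and the others 1.88 to 7.56.

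For 3 members the mean difference of a class from the other classes was flagged for opposite signs between groups of ganglia, and none of these differences was tested. Signs also differed between single libraries for other members, as for *Igfbp2* in mural-like cells (-1.96 to 5.47). As within-library log2 differences from the other classes, *Igf1* in mural-like cells averaged 0.44 in sympathetic and -1.02 in the other libraries, a gap of 1.46. *Igf1r* in fibroblast-like cells averaged -0.38 and 0.30, a gap of -0.67. *Insrr* in fibroblast-like cells averaged 0.82 in pelvic and -0.64 in the other libraries, a gap of 1.46. The fibroblast-like levels themselves were 1.68 and 0.915 CPM in the pelvic and 0 to 1.48 CPM in the other libraries, on at most 10 UMIs each, and the other classes include the neurons, at 1.88 and 1.22 CPM in the pelvic and 19.8 to 22.7 CPM in the sympathetic libraries.

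The neuron clusters left out for their markers of other classes were found in 5 libraries. A library was counted where their 95% Poisson interval, for counting error only, lay wholly above that of the neurons kept. This was so in 5 of 5 for *Igfbp4* (9.93 to 69.2 CPM). It was so in 4 for *Igf1* (1.50 to 45.4 CPM), *Igfbp5* (11.4 to 123 CPM), *Igfbp6* (2.33 to 94.7 CPM) and *Igfbp7* (8.47 to 528 CPM). For *Igfbp2* (0.377 to 3.03 CPM) and *Igf1r* (39.2 to 75.3 CPM) it was so in 3 each.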

How the results depend on the processing

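Of 52 pairs of member and comparison called, 29 stayed called in the same direction under every alternative run. The count of members called moved by over 1.5 times in these cases. In round 2 alone it was 3 in mural-like cells (6 with all libraries) and 4 in macrophage-like cells (8 with all). Leaving out 1 library gave 5 to 7 in macrophage-like cells, the 5 being without the stellate. Without the replicate block, which pairs the classes of a library, it was 2 in P3 (5 with it), 0 in P1 (2 with it) and 2 in P2 (5 with it). For neurons against glia, fibroblast-like, endothelial-like, mural-like and macrophage-like cells it was 4, 7, 8, 6 and 6 without the block and 6, 7, 9, 6 and 8 with it, none of them a move of over 1.5 times. At resolution 0.6 it was 1 in P1 and 3 in P2, by DESeq2's Wald test 1 in P1, and with each pelvic library clustered alone 0 in P1. In that last setting *Igfbp7* in P3 reversed, to -0.16. The causes were not tested. Keeping the mixed neuron clusters among neurons was an alternative chosen after seeing the data. Low values rest on few UMIs, and 1 library per ganglion outside the pelvic allows no test between ganglia.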
